A study of Mus musculus with 4 samples.

Results

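Heat-shock proteins, their J-domain partners and the CCT chaperonin were followed as a set of 59 genes, taken by a rule on names. The rule keeps symbols that begin with Hsp and a family letter (a to e) or a number. It also keeps those that begin with Dnaja, Dnajb or Dnajc and a number, or with Cct2 to Cct8. The set was chosen with earlier results of these data known. The deposited table lists 9796 genes, of which 9244 have values for each library, and all 59 members are among these. They fall into 9 HSP70 genes (Hspa), 3 HSP90 genes, 2 genes of the mitochondrial HSP60 and HSP10 chaperonin (Hspd1 and Hspe1), 2 genes named as small heat-shock proteins (Hspb6 and Hspb11), 2 genes named for binding other heat-shock proteins (Hspbp1 and Hspbap1), 4 DNAJA, 7 DNAJB and 23 DNAJC genes, and 7 CCT subunits. The stress-induced genes Hspa1a, Hspa1b and Hspb1 were not analysed here. The RNA was that of long-term haematopoietic stem cells, from C57BL/6 mice aged 8 to 12 weeks, sorted as LSK cells negative for CD34 and Flk2 straight into lysis buffer, and libraries of polyA RNA were made by SMARTer, a low-input method. There were 2 wild-type (WT) libraries and 2 from Sin3B knockout (KO) cells, Sin3B being a scaffold of histone deacetylase complexes. The sources used here give neither the allele nor any Cre driver behind the knockout, nor whether the libraries of a genotype came from separate animals, so p-values measure only how these libraries vary, a spread that may be technical.

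Chaperones bind unfolded stretches of other proteins, and many use ATP to release them for another attempt at folding. HSP70 proteins do so in a cycle that J-domain (DNAJ) proteins start, by delivering clients and speeding ATP hydrolysis, and that nucleotide exchange factors end. HSP90 receives late folding intermediates such as kinases and receptors, while the barrel-shaped chaperonins, HSP60 in mitochondria and CCT in the cytosol, enclose whole chains, with actin and tubulin as the main CCT clients. Many cytosolic members are induced by heat-shock factor Hsf1, and the endoplasmic reticulum (ER) members by the unfolded protein response. Haematopoietic stem cells make protein slowly and are known to depend on protein quality control.

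Values are normalised read counts, that is reads per gene divided by 1 size factor per library, with 9950979 to 13700630 reads in the listed genes of a library. Sin3b itself was at 1522 and 1825 in the WT libraries and 755 and 647 in the KO libraries, lower in both (log2 fold change -1.25; limma, Benjamini-Hochberg adjusted p = 0.548, so it did not pass the test used for the members; 0.00249 in the authors' deposited table). The 9 stem cell markers summed here (Kit, Mecom and Meis1 among them) were read in every library, with summed values from 52480.0 to 59203, and so was Cd34, whose protein the sort excluded, at 4945 to 6508. Flt3, the gene of the excluded Flk2, differed within each genotype. It was at 1170 and 372 in WT 1 and 2, and 830 and 354 in Sin3B KO 1 and 2. Of the stem cell markers, Fgd5 was lower in both KO libraries. It was at 710.3 and 1240.3 in WT 1 and 2, and 257 and 643 in Sin3B KO 1 and 2. Hlf was lower too, at 8877 and 7805 in WT 1 and 2, and 5353 and 7054 in Sin3B KO 1 and 2. Of the 9 markers, 7 had a log2 fold change above 0 (median 0.12), beside 53.4% of all genes. Without overlap, 1 was higher in the KO (Ly6a) and 2 were lower, beside 24.7% and 19.4% of all genes. The ribosomal precursor Rn45s took 1.23% and 0.858% of the listed reads in WT 1 and 2 but 0.627% and 0.453% in the knockout, so it separates the genotypes. The 10 neutrophil and monocyte markers, each read in all 4 libraries, summed to 74098 in WT 1, 14537 in WT 2, 51984 in Sin3B KO 1 and 23780.1 in Sin3B KO 2. Markers of 6 erythroid genes summed to 6715, 4177, 14696 and 5055 in the same order, with Slc4a1 at 0 in WT 2. The 5 B-lineage markers summed to 3363, 1490, 3968 and 1627 in that order. The part of such cells, or of what moves Rn45s, in the chaperone values was not tested, and in RNA from a pool of cells fewer cells of a type cannot be told apart from less RNA per cell.

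Promoter sequences were searched for the textbook elements of these responses. RefSeq promoters (build GRCm38.p6; the authors' build is mm9) were found for 47 of the 59 members, and the 250 bases before each start were searched on both strands. The heat-shock element, bound by Hsf1, was searched as 3 units, GAA and its reverse TTC in alternation with 2 free bases between them. It occurred in 3 members, Hspd1, Hspe1 and Dnajb6 (6.38%), against 0.465% of the 7093 genes of the table matched by symbol and 0.514% of all 27025 genes with a promoter entry. Hspd1 and Hspe1 lie head to head with 215 bases between their starts and share 2 overlapping matches, shown in capitals on the strand of Hspe1 (chr1:55088053-55088082, + strand), and the match of Dnajb6 (chr5:29735844-29735872, + strand) follows it.
Hspd1 and Hspe1: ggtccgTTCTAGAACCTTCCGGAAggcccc
Dnajb6: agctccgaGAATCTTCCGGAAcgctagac
The ER stress element, searched as CCAAT and CCACG with 9 free bases between them, is a site of the unfolded protein response. It occurred in 3 members (6.38%), against 0.169% of the matched table genes and 0.13% of all genes with an entry. The 3 are Hspa5 (chr2:34772020-34772048, + strand, ending 47 bases before the start), Hsp90b1 (chr10:86705633-86705661, - strand, and a second match in the reverse orientation at chr10:86705528-86705556) and Dnajc3 (chr14:118937822-118937850, + strand). Capitals mark the element, and each line reads along the strand of its gene.
Hspa5: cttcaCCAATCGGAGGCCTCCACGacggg
Hsp90b1: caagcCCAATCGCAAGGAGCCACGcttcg
Hsp90b1, reverse orientation: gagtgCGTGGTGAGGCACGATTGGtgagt
Dnajc3: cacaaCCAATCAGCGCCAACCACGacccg
A match is a description of the letters, not of binding. A member not named with an element above lacked its exact form in the bases searched or had no promoter entry. Single pairs of heat-shock units (GAANNTTC or TTCNNGAA) were found in 11 members (23.4%) and in 12.4% of the matched table genes. These 11 include the 3 with the longer element, as well as Cct2 and Cct5.

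Between genotypes, 40 of the 59 chaperone genes had a log2 fold change above 0 (Sin3B KO over WT, of the value + 1), that is a higher mean in the knockout, where 53.4% of all genes had one, and no single member passed the test. With 1 library left out the number was 37 to 43. The highest-ranked members were Dnajc11, Hspa14 and Dnajc8, all higher in the KO, and 6 or 7 of the 7 CCT subunits lay above 0 depending on the scaling or the library left out. Hsp90ab1, the most abundant member, and Hspa8 differed between the WT libraries by more than between the genotypes. Adjusted over all 9244 genes, 0 of 59 members passed (limma, Benjamini-Hochberg, smallest adjusted p among members 0.548), where 0% of all genes did. At an unadjusted p under 0.05 there were 6 members, 5 higher (Dnajc11, Hspa14, Dnajc8, Cct2 and Cct5) and 1 lower (Dnajc3), against 4.97% of all genes higher and 3.95% lower (8.91% in either direction). That number was 12 without WT replicate 2 (where 12.9% of all genes reached such a p), 8 with WT replicate 1 left out (16.1%) and 4 with Sin3B KO replicate 1 left out (3.3%). The authors' deposited table calls 1 member at an adjusted p under 0.05, Dnajc11, where 0.325% of genes with values are called. The 2 genotypes did not overlap for 32 members, 22 higher in the KO and 10 lower, while 44.1% of all genes did not overlap, 24.7% higher and 19.4% lower.

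The members' median log2 fold change was 0.17 with quartiles of -0.066 and 0.29, beside 0.033 (-0.26 and 0.27) over all genes. Leaving out WT replicate 1 gave 0.066, and leaving out Sin3B KO replicate 1 gave 0.11. Fold changes in this table also went with abundance, so the members are given beside genes on the same side of a mean of 1000. This limit was chosen after the values were seen. At a mean of at least 1000, 69.1% of 3404 genes were above 0, and 28 of 31 members were. These sets are not matched in level, with a median mean of 2753 for the members and 1763 for the genes. Among members with lower means 12 of 28 were above 0, where 44.2% of genes were. The 95% confidence interval of a member's log2 fold change had a median half-width of 0.55, beside 0.60 over all genes. For 40 of 59 members the interval lay within a 2-fold difference either way, a count not made over all genes. The plot of fold changes by family shows the CCT values at or to the right of 0, while the DNAJC genes lie on either side of it, from -0.88 to 0.89.

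**Figure D1:**
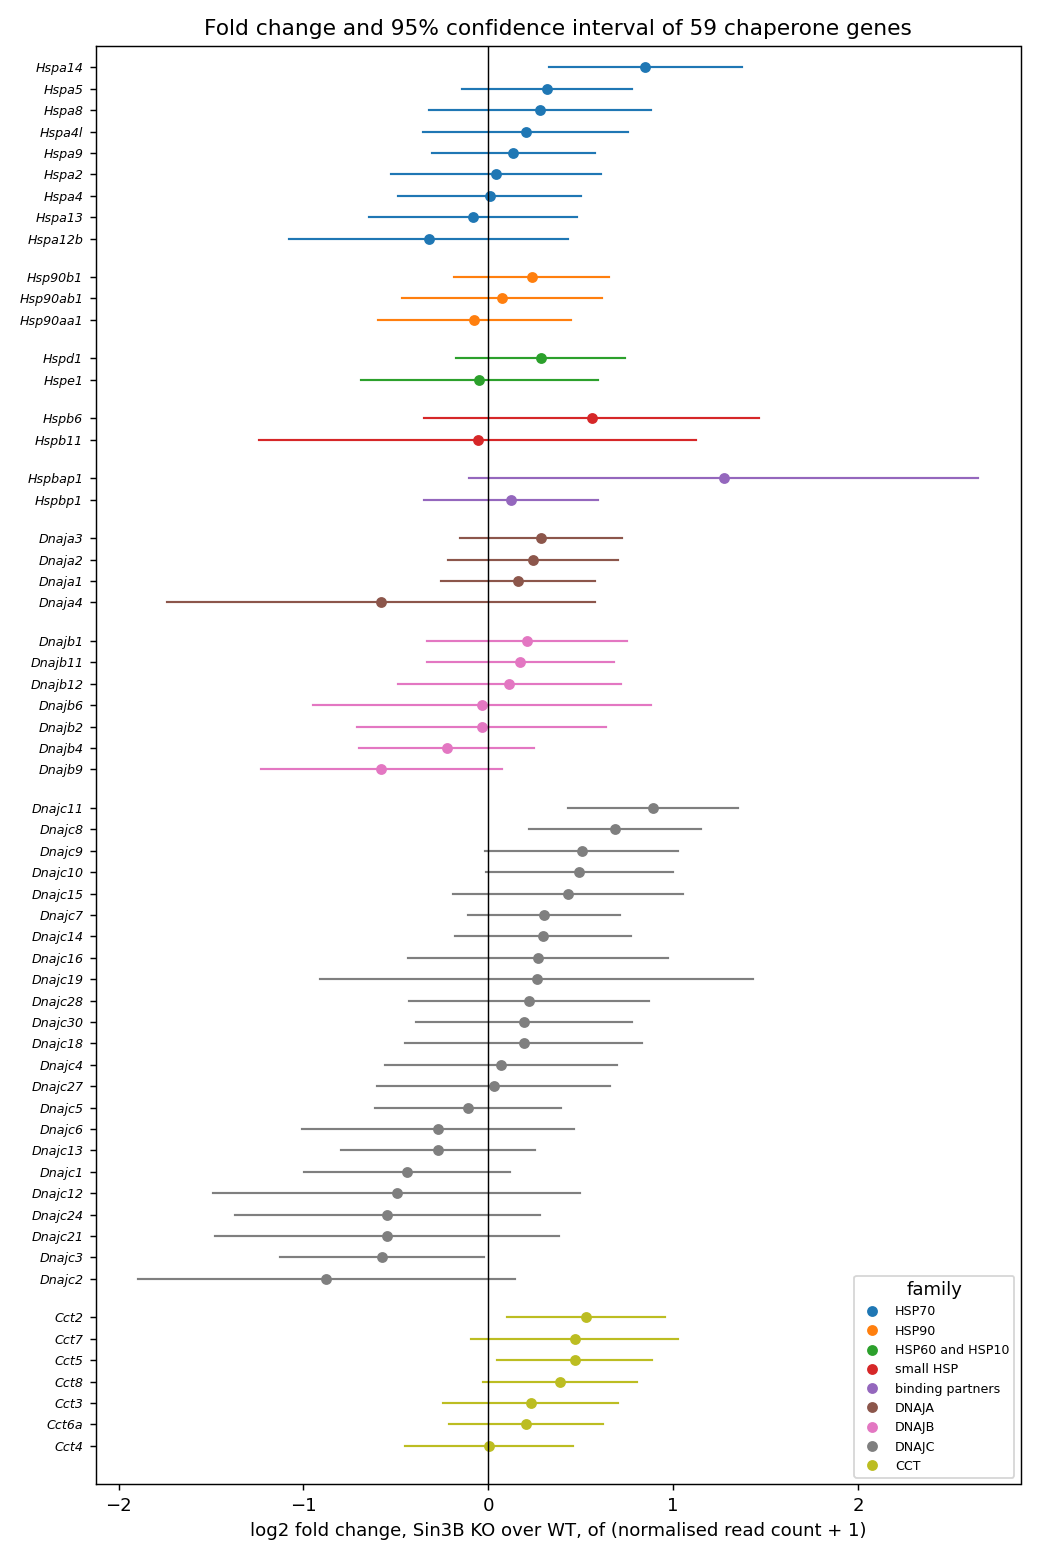
Log2 fold change (Sin3B KO over WT, of the normalised read count + 1) of each of the 59 members on the horizontal axis, with its 95% confidence interval from limma (2 libraries per genotype), in rows ordered by family. 53 of 59 intervals include 0, and those of Dnajc11, Hspa14, Dnajc8, Cct2, Cct5 and Dnajc3 do not.

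Among the HSP70 genes, Hspa14 had the largest difference, higher in the KO, and the 8 others had log2 fold changes between -0.32 and 0.32. Hspa14, the ribosome-associated HSP70, was at 987 and 1383 in WT 1 and 2, and 1979 and 2245 in Sin3B KO 1 and 2. Neither KO value reached down to the WT range, a 1.78-fold difference in means (log2 fold change 0.85, SE 0.23, limma, Benjamini-Hochberg adjusted p = 0.548, unadjusted 0.00527). Its J-domain partner in the ribosome-associated complex, Dnajc2, was at 322 and 233 in WT 1 and 2, and 207 and 107 in Sin3B KO 1 and 2. The KO libraries were the low ones here, opposite in sign to Hspa14, and the interval was wide and held 0 (log2 fold change -0.88, SE 0.45, 95% interval -1.90 to 0.14). It was -0.41 without Sin3B KO replicate 2 and -1.35 with Sin3B KO replicate 1 left out.

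Hspa5 (BiP), the HSP70 of the ER lumen, had the highest level of its family per kb of exon (5105 normalised reads per kb over the 4 libraries), followed by Hspa8 (1049), the constitutive cytosolic HSP70, and Hspa9 (899.7), the mitochondrial one. Hspa5 was at 19536 and 18779.6 in WT 1 and 2, and 26720.1 and 21314 in Sin3B KO 1 and 2. The KO libraries were both higher, and they differed from each other by more than Sin3B KO 2 did from either WT library (log2 fold change 0.32, SE 0.20, limma, Benjamini-Hochberg adjusted p = 0.599). Without Sin3B KO replicate 1 it was 0.15, and after quantile normalisation 0.14. Hspa8 was read at 3027 and 5303 in WT 1 and 2, and 4823 and 4893 in Sin3B KO 1 and 2. WT 1 was the low library and the other 3 were alike, so without WT replicate 1 the log2 fold change turned from 0.28 to -0.13. Hspa9 gave 3420.4 and 3973 in WT 1 and 2, and 4367 and 3749.9 in Sin3B KO 1 and 2, with overlapping genotypes (log2 fold change 0.13, SE 0.19) and a value of -0.031 after quantile normalisation.

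The other HSP70 genes overlapped between genotypes. Hspa4 and Hspa4l, exchange factors of the HSP110 branch, had means of 968 and 1110.2 and log2 fold changes of 0.0079 and 0.20. Hspa2, known from the testis, was at 491 ± 36.8 (SD, n = 2) in the WT libraries and 505 ± 26.1 in the KO libraries, and Hspa13, of the microsomes, at 687 ± 134 (SD, n = 2) in the WT libraries and 643 ± 13.7 in the KO libraries. Hspa12b, a distant relative known from endothelium, was at 509.6 and 425 in WT 1 and 2, and 282 and 491 in Sin3B KO 1 and 2, with Sin3B KO 1 the low library and a log2 fold change that went from -0.32 to 0.078 without it. As a family, 7 of 9 were above 0 (median 0.13). The median was 0.047 with WT replicate 1 left out, 0.078 with Sin3B KO replicate 1 and 0.24 with Sin3B KO replicate 2 left out. The numbers above 0 were 6 under trimmed mean scaling and 5 after quantile normalisation, where Hspa4 and, in the latter, Hspa9 lay below 0.

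Hsp90ab1, the constitutive cytosolic HSP90, had the highest level of all members per kb of exon (13498 normalised reads per kb) and rank 5 by reads in the whole table. It was at 32194 and 47438 in WT 1 and 2, and 40180.5 and 42103 in Sin3B KO 1 and 2. The 2 WT libraries bracketed both KO libraries, and the log2 fold change was 0.074 (95% interval -0.47 to 0.62), or -0.21 without WT replicate 1, 0.35 without WT replicate 2 and 0.24 after quantile normalisation. Its stress-inducible paralog Hsp90aa1 was at 1168 and 1627 in WT 1 and 2, and 1349 and 1269 in Sin3B KO 1 and 2. Here too the KO libraries lay between the WT ones (log2 fold change -0.075, SE 0.23, or 0.16 without WT replicate 2). Per kb of exon, Hsp90ab1 exceeded Hsp90aa1 by 36.1 to 43.5 times in the 4 libraries. The ER paralog Hsp90b1 (Grp94), a folding factor of integrins and Toll-like receptors, gave 6731 and 6076 in WT 1 and 2, and 7894 and 7172 in Sin3B KO 1 and 2. Its genotypes did not overlap, with a difference of 1.18-fold (log2 fold change 0.23, SE 0.18, limma, Benjamini-Hochberg adjusted p = 0.655), or 0.048 on the log2 scale after quantile normalisation.

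The mitochondrial chaperonin genes, which share the promoter shown above, had different levels and fold changes. Hspd1 (HSP60), the barrel subunit, was at 1563 and 1671 in WT 1 and 2, and 2148 and 1803 in Sin3B KO 1 and 2. Both KO libraries were higher (log2 fold change 0.28, SE 0.20, or 0.16 without Sin3B KO replicate 1 and 0.17 after quantile normalisation). Hspe1 (HSP10), the lid, was at 442 and 407 in WT 1 and 2, and 472 and 356 in Sin3B KO 1 and 2, overlapping between genotypes (log2 fold change -0.049, SE 0.28). The ratio of Hspd1 to Hspe1 per kb was 1.97 and 2.29 for the WT libraries, against 2.54 and 2.83 for the knockout. The annotation names 5 pseudogenes after Hspd1 and 6 after Hspe1, and whether reads were split among such copies is not given in the sources used here, so these levels are uncertain. The same holds for Hspa9, Dnaja1, Dnajc19 and Cct3, with 1 named pseudogene each. Copies under other names were not counted, so the levels of the remaining members are not shown to be free of this.

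The small heat-shock genes had few reads. Hspb6, a phosphoprotein known from muscle, was at 152 and 203 in WT 1 and 2, and 211 and 317 in Sin3B KO 1 and 2, higher in both KO libraries with a wide interval (log2 fold change 0.56, SE 0.40, or 0.27 without Sin3B KO replicate 2). Hspb11, which despite its name is a component of intraflagellar transport (Ift25), gave 113 and 150.3 in WT 1 and 2, and 101 and 155 in Sin3B KO 1 and 2. In both genotypes the library numbered 2 was the higher for both genes. Hspbp1, an exchange factor and inhibitor of HSP70, was at 1669 and 2144 in WT 1 and 2, and 2086 and 2042 in Sin3B KO 1 and 2, with WT 1 low and the other 3 libraries alike (log2 fold change 0.13, SE 0.21, or -0.055 without WT replicate 1). Hspbap1 had the largest log2 fold change of the set but low values, at 92.4 and 56.4 in WT 1 and 2, and 249.9 and 124 in Sin3B KO 1 and 2. The KO libraries differed from each other by 1.01 on the log2 scale, and the interval of the fold change ran from -0.10 to 2.65 (limma, Benjamini-Hochberg adjusted p = 0.55). Without Sin3B KO replicate 1 the value was 0.77. The plot of heat-shock protein levels shows these values beside the abundant members.

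**Figure D2:**
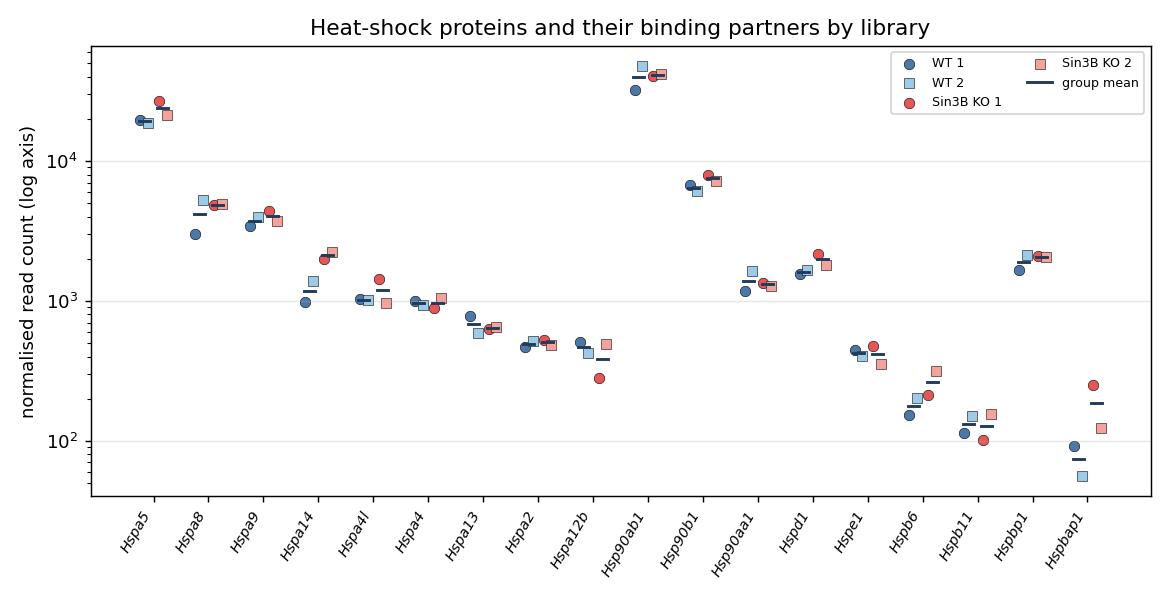
Normalised read count (log axis) of the HSP70, HSP90, HSP60, HSP10, small heat-shock and binding partner genes in each library, by family and then by mean; circles and squares are libraries 1 and 2, blue is WT, red is Sin3B KO and dashes are group means. Hspa14 has both KO points above both WT points, while Hspa8 and Hsp90ab1 have WT points on either side of the KO mean.

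Class A J proteins, the general HSP70 partners with a zinc-binding domain, were higher in the KO for 3 of 4 genes, by small amounts (family median 0.20, or 0.074 after quantile normalisation). Dnaja1, a partner of cytosolic HSP70, was at 2548 and 2692 in WT 1 and 2, and 2912 and 2952 in Sin3B KO 1 and 2, with no overlap (log2 fold change 0.16, SE 0.18). Dnaja2, its close paralog, was at 2608 and 2146 in WT 1 and 2, and 3003 and 2608 in Sin3B KO 1 and 2, and mitochondrial Dnaja3 at 1548 and 1683 in WT 1 and 2, and 1993 and 1939.6 in Sin3B KO 1 and 2. Dnaja3 did not overlap, Dnaja2 in WT 1 and Sin3B KO 2 differed by less than 1 in normalised value, and each of the 3 intervals included 0. After quantile normalisation Dnaja1 was at 0.030, Dnaja2 at 0.12 and Dnaja3 at 0.17 on the log2 scale, and without WT replicate 2 Dnaja2 was at 0.10. Dnaja4 was weak and lower, at 158 and 139 in WT 1 and 2, and 108 and 91.0 in Sin3B KO 1 and 2 (log2 fold change -0.58, SE 0.51, 95% interval -1.74 to 0.58).

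Class B genes had no common direction, 3 of 7 being above 0 (median -0.034, and from -0.21 without Sin3B KO replicate 1 to 0.22 without Sin3B KO replicate 2). Dnajb1 (HSP40), the stress-induced partner of cytosolic HSP70, led class B per kb of exon (1392 normalised reads per kb) and was at 3257 and 5131 in WT 1 and 2, and 4756 and 4693 in Sin3B KO 1 and 2. As for Hspa8, WT 1 was low and the other 3 libraries were alike (log2 fold change 0.21, SE 0.24, or -0.12 without WT replicate 1). Dnajb9 (ERdj4), which restrains the stress sensor Ire1 in the ER, was at 833 and 545 in WT 1 and 2, and 489 and 416 in Sin3B KO 1 and 2. Both KO libraries were lower, 1.52-fold in means (log2 fold change -0.58, SE 0.29, limma, Benjamini-Hochberg adjusted p = 0.55), and without WT replicate 1 the log2 fold change was -0.27. Dnajb11 (ERdj3), a secreted BiP partner, overlapped at 1142 and 1432 in WT 1 and 2, and 1585 and 1314 in Sin3B KO 1 and 2 (log2 fold change 0.17, SE 0.22, or 0.011 without WT replicate 1). Dnajb4, another cytosolic partner, was tightly grouped at 1058 and 1051 in WT 1 and 2, and 892 and 914 in Sin3B KO 1 and 2, lower in both KO libraries by 1.17-fold (log2 fold change -0.22, SE 0.21). The anti-aggregation factors Dnajb2 and Dnajb6 and the ER membrane protein Dnajb12 overlapped, with log2 fold changes of -0.035, -0.034 and 0.11.

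Class C genes, whose J domains sit in otherwise unrelated proteins, held both the highest-ranked and the lowest members. Dnajc11, a protein of the mitochondrial outer membrane linked to cristae, was at 1042 and 1217 in WT 1 and 2, and 2015 and 2169.7 in Sin3B KO 1 and 2. The higher WT value was well under the lower KO value, a 1.85-fold difference in means (log2 fold change 0.89, SE 0.20, 95% interval 0.43 to 1.35, limma, Benjamini-Hochberg adjusted p = 0.548, unadjusted 0.00187). Its log2 fold change was at least 0.78 whichever 1 library was left out. In the authors' deposited table it was 0.75 with an adjusted p of 0.0393. The fold changes of other mitochondrial J proteins were smaller, a difference that was not tested. Dnajc15, a subunit of the import motor region, was at 318 and 334 in WT 1 and 2, and 429 and 450.3 in Sin3B KO 1 and 2 (log2 fold change 0.43, SE 0.27), and its paralog Dnajc19 at 169 and 91.0 in WT 1 and 2, and 149 and 149 in Sin3B KO 1 and 2, the 2 KO values level and between the WT ones (log2 fold change 0.26, SE 0.51, or -0.18 without WT replicate 2).

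Dnajc8, a spliceosome component, was at 1666 and 2021 in WT 1 and 2, and 3188 and 2735 in Sin3B KO 1 and 2, 1.61-fold higher in the KO without overlap (log2 fold change 0.69, SE 0.20, limma, Benjamini-Hochberg adjusted p = 0.548, unadjusted 0.00874). Dnajc9, a co-chaperone of histones H3 and H4, was at 1504 and 1891 in WT 1 and 2, and 2793 and 2055 in Sin3B KO 1 and 2. It too was higher in both KO libraries (log2 fold change 0.51, SE 0.23, or 0.28 without Sin3B KO replicate 1), although Sin3B KO 2 came close to WT 2. Dnajc7, a cytosolic adaptor between HSP70 and HSP90, drew the most reads of class C and varied little within a genotype, at 3149 and 3231 in WT 1 and 2, and 3901 and 3964 in Sin3B KO 1 and 2. The genotypes stood apart by 1.23-fold (log2 fold change 0.30, SE 0.18), with an interval of -0.11 to 0.71 and a value of 0.17 after quantile normalisation. Dnajc5 (CSP), a vesicle protein, also drew many reads, and overlapped at 3198 and 2511 in WT 1 and 2, and 3002 and 2303 in Sin3B KO 1 and 2 (log2 fold change -0.11, SE 0.22).

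J proteins of the ER went both ways. Dnajc3 (P58IPK), an inhibitor of the stress kinase PERK that carries the ER stress element, was at 1378 and 1071 in WT 1 and 2, and 930.4 and 715 in Sin3B KO 1 and 2. Both KO libraries were lower, 1.49-fold in means (log2 fold change -0.57, SE 0.24, limma, Benjamini-Hochberg adjusted p = 0.548, unadjusted 0.0433). Hspa5 and Hsp90b1, which hold the same element, had the opposite sign. Dnajc10 (ERdj5), a disulfide reductase, was at 1407 and 1078 in WT 1 and 2, and 1607 and 1868 in Sin3B KO 1 and 2, higher in both KO libraries (log2 fold change 0.49, SE 0.22, or 0.30 without WT replicate 2). Dnajc1 (ERdj1), at the translocon, was at 716 and 696 in WT 1 and 2, and 467 and 579.7 in Sin3B KO 1 and 2, lower in both (log2 fold change -0.44, SE 0.24, or -0.28 without Sin3B KO replicate 1). Counting Hspa5, Hspa13, Hsp90b1, Dnajb9, Dnajb11, Dnajc1, Dnajc3 and Dnajc10 as ER members, 4 of 8 were above 0, 3 higher and 3 lower without overlap. The 8 mitochondrial members Hspa9, Hspd1, Hspe1, Dnaja3, Dnajc11, Dnajc15, Dnajc19 and Dnajc30 had 7 above 0 and 4 higher without overlap. Over all genes 53.4% were above 0, 24.7% higher and 19.4% lower without overlap. These groupings by compartment were made after the values were seen, and they are not complete. The ER count leaves out the ER membrane protein Dnajb12, which overlapped with a log2 fold change of 0.11. Members not listed in either grouping were not sorted by compartment.

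None of the remaining class C genes reached an unadjusted p under 0.05. Lower in both KO libraries were Dnajc12 (-0.49), Dnajc13 of the endosome (-0.27), Dnajc21 of ribosome assembly (-0.55) and Dnajc24 of diphthamide synthesis (-0.55), on the log2 scale. Dnajc21 was at 205 ± 3.37 (SD, n = 2) in the WT libraries and 140.3 ± 6.77 in the KO libraries, and Dnajc24 at 351 and 353 in WT 1 and 2, and 319 and 182 in Sin3B KO 1 and 2, the low value coming from Sin3B KO 2 (a log2 fold change of -0.14 without it). Higher in both were Dnajc14 (0.30) and Dnajc16 (0.27). Dnajc4, Dnajc6 (auxilin, which uncoats clathrin vesicles), Dnajc18, Dnajc27, Dnajc28 and Dnajc30 overlapped, with log2 fold changes from -0.27 to 0.22. Of all 23 class C genes, 14 were above 0, a share near the 53.4% of all genes. Without overlap, 8 were higher and 7 lower, beside 24.7% and 19.4% of all genes. The median of 0.19 became -0.040 without WT replicate 2, 0.087 with WT replicate 1 left out and 0.084 with Sin3B KO replicate 1 left out.

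**Figure D3:**
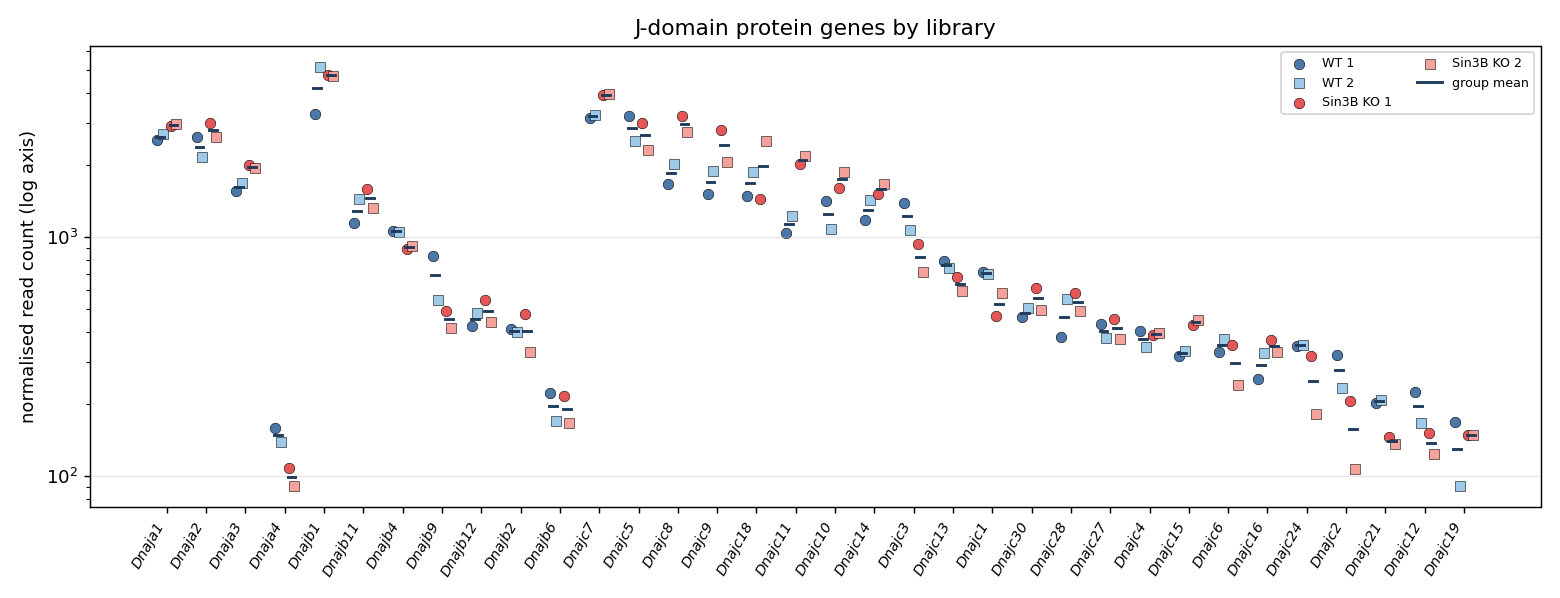
Normalised read count (log axis) of each J-domain protein gene in each library, in class A, B and C order and by mean within a class; circles and squares are libraries 1 and 2, blue is WT, red is Sin3B KO and dashes are group means. The KO points of Dnajc11 and Dnajc8 lie above and those of Dnajc3 and Dnajc2 below their WT points, and the KO points of Dnajb1 lie between its WT points.

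The CCT subunits, whose rings are built of 8 different proteins with Tcp1 as the one outside the name rule, leaned to the KO: 7 of 7 had a fold change above 0 with a median of 0.39, and 5 were higher without overlap. Of genes with a mean of at least 1000, 37.0% were higher without overlap. Their median mean was 1763, against 6069 for the CCT genes, so the levels are not matched. Cct4 was above 0 by only 0.0025 and came to -0.037 under trimmed mean, -0.033 under median-of-ratios and -0.14 under quantile scaling. No CCT gene passed after adjustment (limma, Benjamini-Hochberg, smallest adjusted p 0.548). The family median was 0.21 without WT replicate 1 and 0.19 after quantile normalisation, where Cct5 was at 0.27, Cct8 at 0.19, Cct7 at 0.30 and Cct6a at 0.016. Rn45s, given above, also separates the genotypes, and its part was not tested.

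Cct5 was the most abundant subunit, at 10085 and 10694 in WT 1 and 2, and 15066 and 13678 in Sin3B KO 1 and 2. Its KO values stood clear of WT by 1.38-fold (log2 fold change 0.47, SE 0.18, 95% interval 0.048 to 0.89). Cct2 was at 2857 and 3335 in WT 1 and 2, and 4573 and 4353 in Sin3B KO 1 and 2, 1.44-fold higher in means (log2 fold change 0.53, SE 0.19, limma, Benjamini-Hochberg adjusted p = 0.548, unadjusted 0.0206). Cct8, at 5643 and 5123 in WT 1 and 2, and 7389 and 6693 in Sin3B KO 1 and 2, was also higher in both KO libraries (log2 fold change 0.39, SE 0.18). Cct7 differed within WT, at 4374 and 7124 in WT 1 and 2, and 7458 and 7993 in Sin3B KO 1 and 2, and its log2 fold change of 0.47 became 0.12 without WT replicate 1. Cct6a had 5637 ± 39.0 (SD, n = 2) in the WT libraries and 6500.5 ± 609.6 in the KO libraries without overlap, while Cct3 (0.23) and Cct4 overlapped. Tcp1 was at 3686 and 3824 in WT 1 and 2, and 4987 and 4459 in Sin3B KO 1 and 2, with both KO libraries higher (log2 fold change 0.33, SE 0.18).

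Although 1 copy of each subunit enters a ring, the RNA levels were unequal. Per kb of exon Cct5 was highest and Cct3 lowest in each library, with a ratio of 8.10 and 6.42 for WT, against 9.25 and 7.82 for the knockout. Exon lengths are unions over all annotated transcripts, 2.77 kb for Cct5 and 6.37 kb for Cct3, so a gene with long, little-used exons is placed low. Summed over the 7 subunits the normalised count was 36484 and 40395 for WT, against 50657 and 47084 for the knockout, that is 0.322%, 0.347%, 0.417% and 0.385% of the listed signal. Both KO sums exceed both WT sums, and Cct5 alone gave 26.5% to 29.7% of each. The plot of CCT levels shows each subunit.

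**Figure D4:**
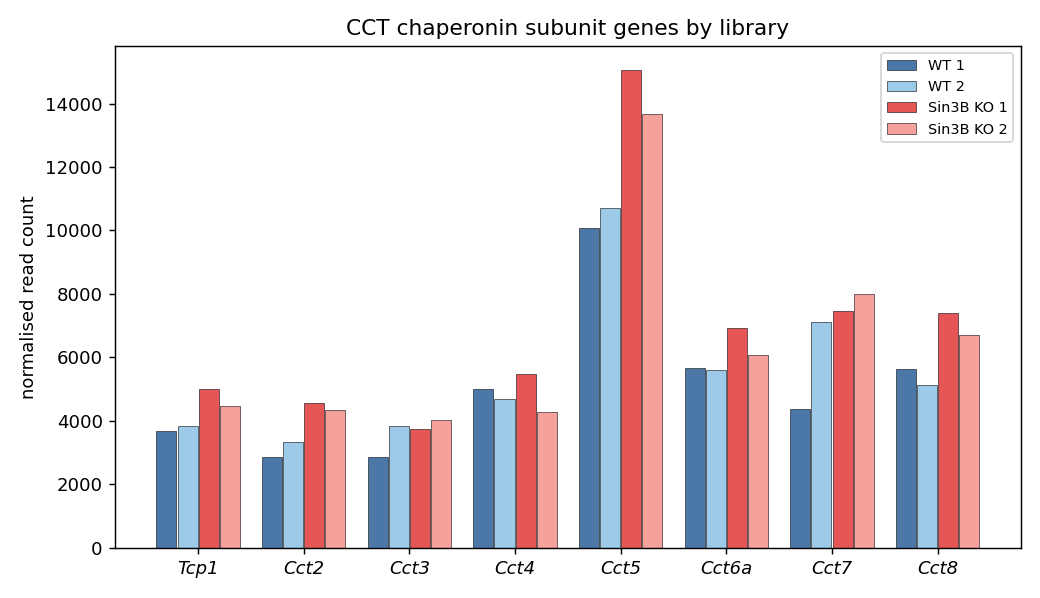
Normalised read count (linear axis from 0) of Tcp1 and the 7 CCT members in each library, blue for WT 1 and 2 and red for Sin3B KO 1 and 2. The red bars of Cct2, Cct5, Cct6a, Cct7, Cct8 and Tcp1 stand above the blue ones, and WT 1 is the lowest bar of Cct7.

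Differences between the libraries of 1 genotype were as large as those between genotypes for many members. WT 1 and WT 2 differed by a median absolute log2 value of 0.22 and the KO libraries by 0.22, beside 0.27 between genotypes. Over all genes these medians were 0.32, 0.24 and 0.27, so the median WT gap was above the genotype one there and below it among members. The WT gap exceeded the genotype difference for 26 of 59 members. This count was not made over all genes, so it does not set the members apart. A gap between single libraries is set here against a difference of 2-library means, which varies less. WT 1 was the lowest of the 4 libraries for 27 members (45.8%), against 30.6% of all genes. The 4 members farthest below WT 2 there were Hspa8, Cct7, Dnajb1 and Hsp90ab1, by -0.81 (Hspa8) to -0.56 (Hsp90ab1) on the log2 scale, and their KO libraries differed by -0.10 to 0.019. The next, Dnajc28, was -0.53 in WT and 0.25 in the knockout. WT 1 also had the highest sum of neutrophil and monocyte markers given above. Sin3B KO 1 was likewise above Sin3B KO 2 in that sum, at 51984 against 23780. Yet Sin3B KO 1 was the highest library for 24 members (40.7%), against 26.1% of all genes. The 13 immediate early genes, which respond to handling within minutes, summed to 10428 in WT 1, 28406 in WT 2, 9932 in Sin3B KO 1 and 15947 in Sin3B KO 2, so WT 2, the highest library for Hspa8, Dnajb1 and Hsp90ab1, was highest there too. The part of cell mixture or handling in these values was not tested. The plot of differences within a genotype places Hspa8, Cct7, Dnajb1 and Hsp90ab1 at its left edge.

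**Figure D5:**
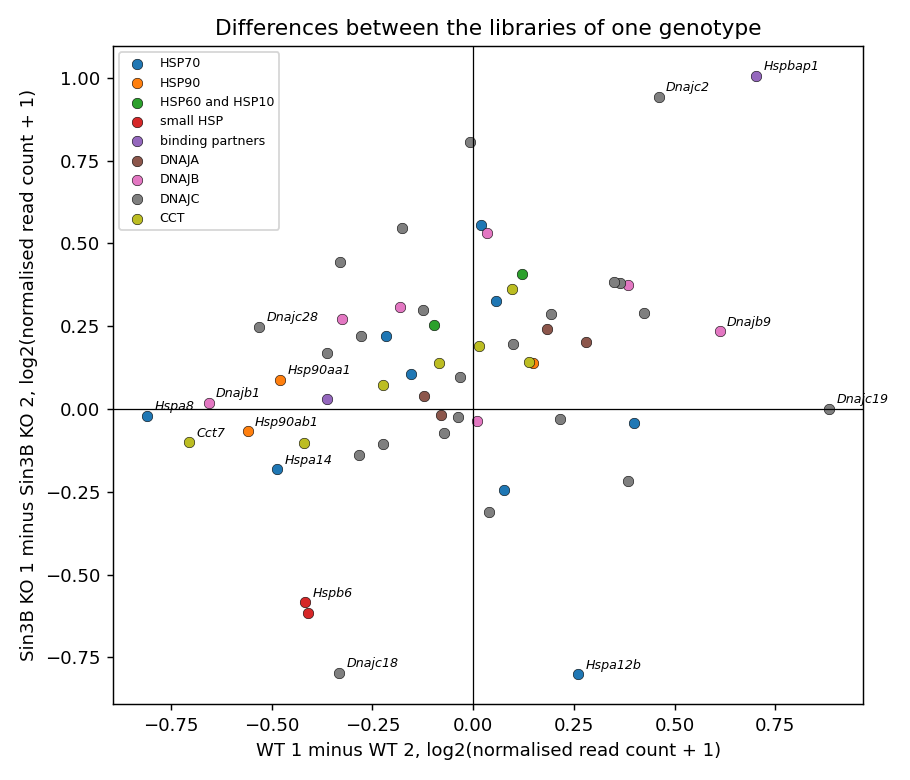
Difference between the libraries numbered 1 and 2 on the log2(normalised read count + 1) scale, in WT (horizontal) and in Sin3B KO cells (vertical), 1 point per member coloured by family. Hspa8, Cct7, Dnajb1 and Hsp90ab1 are low in WT 1 with KO libraries near level, while Hspbap1 and Dnajc2 are higher in library 1 of both genotypes.

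Other genes of the chaperone network were taken by list, and 0 passed after adjustment in any list (limma, Benjamini-Hochberg). Their counts stand beside 53.4% of all genes above 0 and 24.7% higher without overlap, or 69.1% and 37.0% at a mean of at least 1000. The regulator Hsf1 overlapped at 1570.0 and 1857 in WT 1 and 2, and 1821 and 1602 in Sin3B KO 1 and 2, and Hsf2 did too, with a log2 fold change of -0.21. Cytosolic co-chaperones had 14 of 23 measured genes above 0 (median log2 fold change 0.18, 9 higher and 4 lower without overlap). Bag6, which guards tail-anchored proteins, was lower at 485 and 651 in WT 1 and 2, and 395 and 331 in Sin3B KO 1 and 2 (log2 fold change -0.63, SE 0.28), and Ppid, an HSP90 cyclophilin, higher at 1267 and 974 in WT 1 and 2, and 1600.3 and 1509 in Sin3B KO 1 and 2 (log2 fold change 0.48, SE 0.22). Prefoldin, which hands actin and tubulin to CCT, had 4 of 5 measured genes above 0 (median log2 fold change 0.21, 1 higher and 0 lower without overlap), with Pfdn1 at 877 ± 248 (SD, n = 2) in the WT libraries and 1072 ± 80.6 in the KO libraries and Pfdn2 at 650.2 ± 77.8 (SD, n = 2) in the WT libraries and 757 ± 76.1 in the KO libraries. ER folding genes had 16 of 19 measured genes above 0 (median log2 fold change 0.14, 5 higher and 0 lower without overlap). Of these Pdia4, a disulfide isomerase, was at 3179 and 3032 in WT 1 and 2, and 4335 and 3836 in Sin3B KO 1 and 2 (log2 fold change 0.39, SE 0.19) and Pdia6 at 6924 and 6981 in WT 1 and 2, and 8889 and 8219 in Sin3B KO 1 and 2, both higher in the KO libraries. Mitochondrial chaperones and proteases had 7 of 8 measured genes above 0 (median log2 fold change 0.35, 5 higher and 0 lower without overlap), where Trap1, the mitochondrial HSP90, was at 3395 and 3856 in WT 1 and 2, and 4733 and 4923 in Sin3B KO 1 and 2 (log2 fold change 0.42, SE 0.18) and the protease Htra2 at 941 and 936 in WT 1 and 2, and 1272 and 1209 in Sin3B KO 1 and 2. At an unadjusted p under 0.05 (limma) these lists held 0 genes, where 8.91% of all genes reached such a p. The immediate early list held 2, Junb (-1.28) and Ier2 (-0.55). Of its 13 measured genes, 1 was above 0 (median log2 fold change -0.55). Without overlap, 0 of them were higher and 2 lower, the latter beside 19.4% of all genes.

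In the authors' deposited table the members' log2 fold changes had the same sign as here for 59 of 59 and were mostly smaller, with a median of 0.14. It gave 9 members an unadjusted p under 0.05 (15.3%), where 9.76% of genes with values had one. In the authors' deposited table Hspa14 was at 0.68, Dnajc8 at 0.58, Cct2 at 0.46, Cct5 at 0.42 and Dnajc3 at -0.45, with adjusted p-values of 0.136, 0.187, 0.306, 0.308 and 0.51. Both comparisons rest on the same 4 libraries. Across genes, a longer exon length went with a lower fold change in the whole table (Spearman rho -0.235 over 9000 genes, which share their libraries), while over the 59 members rho was -0.0534.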

How the data were processed

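A single table was deposited for the whole series. Bowtie, DESeq and the mouse build mm9 are named in the submitters' processing notes, without versions; neither the read counter nor the annotation is given in the sources used here. Each library has 1 column of signal, made by the authors from read counts and 1 size factor: within a library the values are whole multiples of a single step, to within 0.01 of a step. Per the file headers, the authors' comparison columns are a log2 fold change, its standard error, a test score, and p-values before and after adjustment. Library values are missing for 552 listed genes, which were left out. The lowest mean listed is 120.2, and weaker genes were not analysed here.

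limma 3.58.1 (R 4.3.3) was fitted with a trended prior to log2(value + 1) over the 9244 genes that reach 1 in 2 or more libraries, all 59 members included. Benjamini-Hochberg adjustment ran over all of them, with a threshold of 0.05. The fit was also run on simulated counts of independent libraries with a single assumed spread. The real libraries share deviations by number, as given below, so that run does not measure how the fit performs here. The members and gene lists were chosen with earlier results of these data known. The rule for named genes took, in each family, members past the threshold, the 3 with the smallest p, the 2 with the highest mean and the 1 with the largest difference between libraries 1 and 2, plus well-known anchors; other members are given for completeness. Libraries carry the numbers of their titles. Exon lengths come from GENCODE M21 (GRCm38) through the deposited Ensembl identifiers. Protein sequences were not used here, and 1 stem cell marker is not reported here. The alternatives were 3 other scalings (trimmed mean, median-of-ratios and quantile), other pseudocounts and filters, a block for the replicate number, and leaving out each library.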

Additional observations from a re-analysis of the deposited data

How the results depend on the processing

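Members past the adjusted threshold numbered 0 under all settings run. Genes past it numbered 27 with the replicate number as a block and 0 to 1 without 1 library. The block, whose number has no stated meaning, gave 13 members an unadjusted p under 0.05 against 6 (limma), where the share of all genes was 17% against 8.91%, and its smallest adjusted p among members was 0.0684 (limma, Benjamini-Hochberg, Dnajc11; 0.0684 to 0.997 over all settings). Deviations of same-numbered libraries correlated at 0.46 over genes. Sin3b itself passed with the block, at an adjusted p of 0.0282 (limma, Benjamini-Hochberg). With genes of a mean of at least 500 the medians were 0.28 for HSP60 and HSP10, 0.13 for binding partners and 0.24 for DNAJA, fewer genes being left, and the small heat-shock genes had no value. The DNAJA median was 0.16 under trimmed mean, 0.17 under median-of-ratios and 0.074 under quantile scaling, and the CCT median 0.19 under the last; the cause was not tested. Quantile scaling also turned Hspa9 (-0.031), Hspb11 (0.19), Hspbp1 (-0.0046) and Hspe1 (0.031). With 1 library left out, where the lone sample is assumed to vary like the others, medians ran over 0.066 to 0.23 for all members, 0.21 to 0.44 for CCT, 0.15 to 0.23 for DNAJA, -0.21 to 0.22 for DNAJB, -0.040 to 0.17 for DNAJC, -0.047 to 0.28 for HSP60 and HSP10, 0.047 to 0.24 for HSP70, -0.21 to 0.16 for HSP90, 0.44 to 0.96 for binding partners and -0.048 to 0.55 for small heat-shock genes. Named genes whose sign turned had ranges of Dnajb1 -0.12 to 0.54, Dnajc5 -0.30 to 0.083, Hsp90aa1 -0.31 to 0.16, Hsp90ab1 -0.21 to 0.35, Hspa8 -0.13 to 0.68, Hspb11 -0.37 to 0.25, Hspbp1 -0.055 to 0.31, Hspe1 -0.25 to 0.15. In 351 other values of named genes, sign and side of the threshold were as reported. The edgeR and DESeq2 tests on recovered reads were not run.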
